A study of Sus scrofa with 15 samples.

Results

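Kinesins are motor proteins that use ATP to move along microtubules, and the 39 genes described here are the rows of the pig gene count table whose symbol is KIF followed by a digit, *KIFC1*, *KIFC2* or *KIFC3*, out of 22516 rows. They were sorted by their known roles into 14 spindle and division kinesins, 17 transport kinesins and 8 cilium, signalling and other kinesins. A meiotic oocyte at the germinal vesicle (GV) stage holds an intact nucleus and no spindle. During maturation the nuclear envelope breaks down, a bipolar spindle forms without centrioles, part of the chromosomes leaves in the polar body, and the oocyte stops at metaphase II (MII) with a second spindle. Spindle kinesins slide, crosslink and shorten the microtubules of these spindles and work in the midzone where the polar body is cut off, while transport kinesins carry vesicles, mitochondria and RNA along the microtubules of the cytoplasm.

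The libraries came from sow oocytes of abattoir ovaries in 3 groups of 5 libraries, each made from a pool of 15 oocytes. GV oocytes were taken from fresh follicles without culture. MII oocytes had been matured in vitro for 44 h inside their cumulus complexes and carried a polar body. The ‘damaged’ oocytes went through the same culture and showed no polar body, which is the whole definition of that group, and MII and ‘damaged’ libraries together are called MIX. Every MIX library was cultured and no GV library was, so meiotic stage and culture cannot be told apart in any comparison with GV. The oocytes came from 5 independent collections that each gave a pool for every group, and the labels do not say whether the replicate number marks the collection. The spread between libraries of a group covers oocytes and handling together, and a lower level per oocyte and a smaller part of the pool carrying a transcript cannot be told apart. The libraries were made from poly(A) RNA with an oligo-dT kit that does not mark strand. Since the kit primes on poly(A) tails, a change in transcript amount and a change in tail length cannot be told apart.

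Totals were 6.40 to 23.6 M counts per library. GV replicate 3 had the lowest total. With all 15 libraries scaled together, it stood outside the range of the other 4 GV libraries for 20 of the 31 tested kinesins. It lay above for 7 and below for 13. *KIF1C* stood at 41.4 against 4.53 to 10.6 TMM-scaled CPM (counts per 1 M counts) per kb. The share over all genes tested was not counted, so the 20 cannot be read as particular to kinesins. GV replicate 3 was left out, as the study also analysed 4 GV libraries, and 14 libraries remained. In the gene table, 7 of 15 column names went against the totals of the transcript files, so each library was taken by the label of its transcript file. With the column names used instead, 0 of the 31 tested kinesins and 0 of all 13230 genes tested passed in MIX against GV, with 0 and 349 of them at an unadjusted limma p under 0.05. Of 11 oocyte markers, 10 had counts, and *DAZL* matched no gene symbol. The 10 summed to 9770 to 11362 CPM in GV, 4859 to 7221 in MII and 5655 to 7756 in ‘damaged’ libraries. Summed markers of cumulus and granulosa cells, 10 of 14 with counts, lay at 73.0 to 117 CPM in GV, 146 to 272 in MII and 151 to 243 in ‘damaged’ libraries. *KITLG* made up 69.2 to 111 CPM of it in GV and 145 to 271 in MIX. *LHCGR* and *PTX3* had no count, while *CYP19A1* and *FOXL2* matched no gene symbol and so were not measured. No other marker of that list passed 3.18 CPM in a library. The part of these markers in the kinesin results was not tested. Theca and stroma markers summed to 7.71 to 14.7 CPM and immune markers to 0.2404 to 1.503 CPM over all groups.

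Of the 39 kinesin genes, *KIF1A*, *KIF5A*, *KIFC2* and *KIF26A* had no count, and *KIF2B*, *KIF19*, *KIF21B* and *KIFC3* reached at most 19.9 counts in any library and did not pass the filter on low counts. The 31 others were tested. Levels are given as TMM-scaled CPM per kb of mean transcript length, which allows genes to be compared, and changes as log2 fold changes with their standard error (SE). A gene changed when its false discovery rate (FDR) in limma was under 0.01, and was a differentially expressed gene (DEG) when its log2 fold change also passed 2 in size.

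After maturation most spindle kinesins stood higher. In MIX against GV, 18 of the 31 tested kinesins rose and 7 fell, while 30% of all genes tested rose and 37% fell. With the replicate number as a block 17 rose and 6 fell, without *KIF24* and *KIF9*. The DEGs were *KIF18A*, *KIF20B*, *KIF15* and *KIF4A* upwards, and *KIF17* and *KIF12* downwards, against 4.27% of all genes upwards and 16.8% downwards. An unadjusted p under 0.05 was seen in 25 kinesins and in 76.3% of all genes tested. For 14 kinesins every matured library lay above every GV library, and for 4 below, compared with 24.3% and 29.4% of all genes tested. By class, 10 of 13 tested spindle kinesins rose and 1 fell, 6 of 12 transport kinesins rose and 4 fell, and 2 of 6 other kinesins rose and 2 fell. The median log2 fold change was 1.02 for spindle kinesins, 0.33 for transport kinesins, 0.08 for the others and -0.16 for all genes tested.

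These directions are relative to the TMM scaling. On library sizes alone, the median of all genes moved to -1.05, 11.9% of genes rose and 60% fell, and the medians were 0.13 for spindle, -0.56 for transport and -0.81 for other kinesins. With that scaling 8 kinesins rose and 12 fell. The 8 that rose under both scalings were *KIF18A*, *KIF20B*, *KIF15*, *KIF4A*, *KIF20A*, *KIF23*, *KIF5B* and *KIF27*, and the 7 that fell under both were *KIF17*, *KIF12*, *KIF9*, *KIF22*, *KIF3C*, *KIF1C* and *KIF13A*. *KIF2A*, *KIF2C*, *KIF13B*, *KIF21A* and *KIF24* were called higher with TMM and had a log2 fold change below 0 on library sizes, not past the test in any of the 5. The scaling moved the members nearly in parallel, from a span of 2.59 to -2.41 with TMM to one of 1.69 to -3.32 on library sizes.

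**Figure D1:**
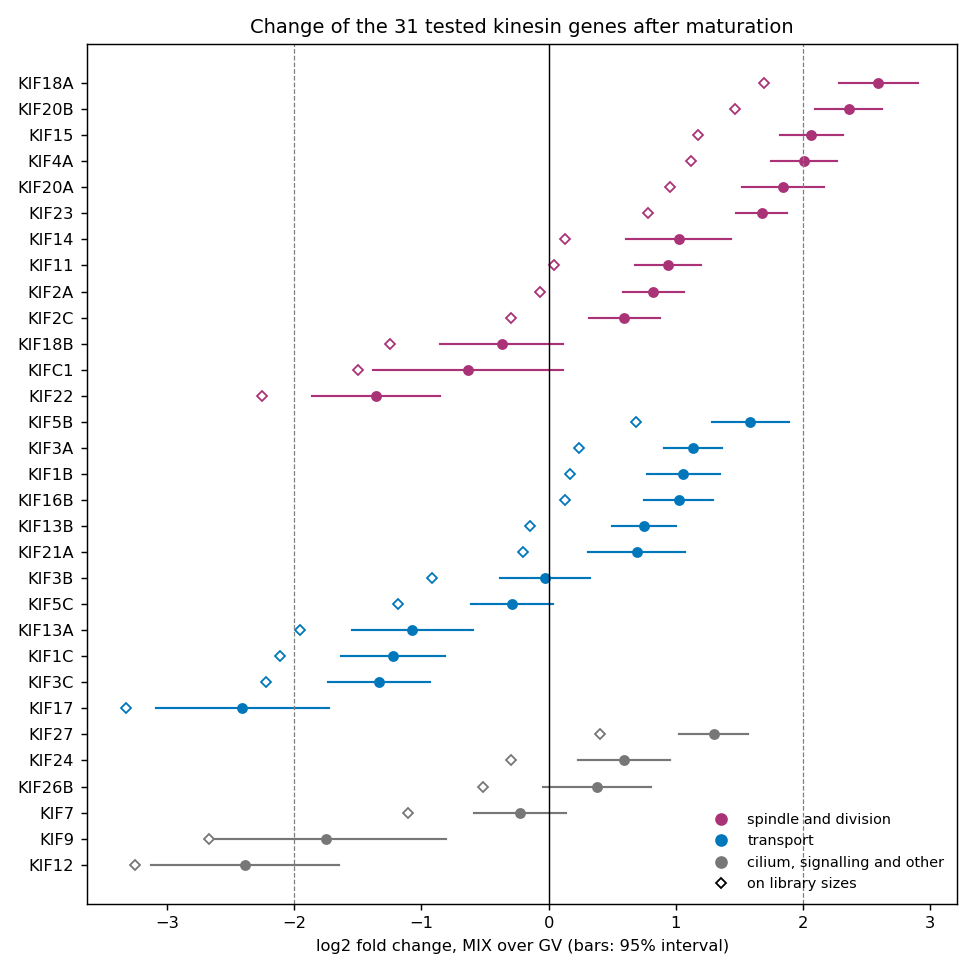
Log2 fold change of the 31 tested kinesin genes in MIX over GV (x axis), with filled points for TMM scaling, bars for the 95% interval and open diamonds for library sizes. Dashed lines mark the DEG limit of 2, and the points run from *KIF18A* at 2.59 to *KIF17* at -2.41, with diamonds shifted left of the points throughout.

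The midzone and cytokinesis motors include *KIF23* and *KIF20B*, the most abundant kinesins in each group. *KIF20B*, which works in cytokinesis and lies on chromosome 14 from 101512685 to 101594703 in RefSeq's Sscrofa11.1, stood at 121, 91.6, 88.6 and 77.9 CPM per kb in GV libraries 1, 2, 4 and 5. It reached 519, 582, 434, 542 and 421 in the MII libraries and 452, 496, 464, 520 and 389 in the ‘damaged’ libraries. No GV library came near the matured ones, and the log2 fold change was 2.36 (SE 0.13, FDR 2.9e-12). *KIF23*, the motor of the centralspindlin complex that builds the midzone, had 117, 97.2, 97.6 and 95.03 CPM per kb in GV, level with *KIF20B* within the spread between libraries. In MII it stood at 334, 341, 290, 338 and 364, and in ‘damaged’ at 302, 312, 325, 319 and 311 CPM per kb. Its rise of 1.67 (SE 0.10, FDR 9.1e-12) was smaller than that of *KIF20B*, so that *KIF20B* led the kinesins in MIX with 482 ± 60.1 CPM per kb against 324 ± 21.4 for *KIF23* (SD, n = 10).

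*KIF20A*, which brings the chromosomal passenger complex to the midzone, stood at 26.7, 24.0, 21.9 and 28.0 CPM per kb in GV. Its MII values were 84.1, 133, 79.9, 101 and 80.1 and its ‘damaged’ values 61.6, 89.2, 84.5, 95.6 and 107. The matured libraries were spread more widely than for *KIF23* but all lay above GV, with a log2 fold change of 1.84 (SE 0.15, FDR 1.6e-09). *KIF4A*, a chromokinesin that with *PRC1* sets midzone length and is on chromosome X from 56319453 to 56447560, had 21.1, 18.3, 18.8 and 19.8 CPM per kb in GV. In MII libraries it read 76.4, 93.3, 80.5, 85.9 and 72.4 and in ‘damaged’ libraries 59.8, 79.9, 65.1, 90.1 and 87.2. The GV values were close together and lay below all matured ones, at a log2 fold change of 2.01 (SE 0.12, FDR 2.1e-11), which fell just under 2 when any of 6 libraries was left out. *KIF14*, a partner of *PRC1* and citron kinase in abscission, rose by 1.02 (SE 0.20, FDR 1.1e-04), from 9.44 ± 2.39 (SD, n = 4) to 19.3 ± 4.96 CPM per kb (SD, n = 10). GV and MIX libraries of *KIF14* overlapped, and its value of 0.13 without TMM did not pass.

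The motors that push spindle poles apart differed in the size of their change. *KIF15*, a plus-end motor of bipolar spindles located on chromosome 13 from 27966586 to 28041121, had 28.3, 28.4, 31.3 and 25.5 CPM per kb in GV. It stood at 126, 135, 114, 135 and 98.8 in MII and 101, 123.3, 101, 138 and 120 in ‘damaged’ libraries. Every matured library lay far above every GV library, and the log2 fold change was 2.07 (SE 0.12, FDR 7.8e-12). *KIF11*, the tetrameric motor needed to set up bipolarity, had 11.04, 8.53, 9.69 and 8.14 CPM per kb in GV. Its values were 19.3, 20.2, 19.5, 19.1 and 15.0 in MII and 15.5, 17.3, 15.2, 19.7 and 18.3 in ‘damaged’ libraries. *KIF11* thus stayed well below *KIF15* in each library, and its log2 fold change of 0.94 (SE 0.12, FDR 9.8e-07) was 0.04 on library sizes, not past the test. *KIFC1*, a minus-end motor that gathers spindle poles, read 0.774, 1.85, 0.971 and 3.30 CPM per kb in GV, 0.775, 0.829, 0.842, 1.01 and 0.678 in MII, and 0.415, 1.42, 0.939, 1.19 and 2.26 in ‘damaged’ libraries. The groups overlapped, its log2 difference of -0.63 (SE 0.36, FDR 0.11) did not pass, and on library sizes it was -1.50 and passed (FDR 0.0020).

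Among the motors of chromosome alignment, the kinesin-8 genes *KIF18A* and *KIF18B* were far apart in level. *KIF18A*, which shortens and damps kinetochore microtubules and lies on chromosome 2 from 32244073 to 32331392, showed the largest rise of the tested kinesins at 2.59 (SE 0.15, FDR 7.8e-12). Its GV values were 48.8, 26.5, 33.9 and 22.4 CPM per kb, its MII values 190, 209, 181, 214 and 197, and its ‘damaged’ values 181, 193, 190, 194 and 153. The lowest matured library was far above the highest GV library, which was GV replicate 1. *KIF18B*, its relative at the plus ends of astral microtubules, had 0.702 ± 0.225 in GV (SD, n = 4) and 0.531 ± 0.108 CPM per kb in MIX (SD, n = 10), with a log2 difference of -0.37 (SE 0.23, FDR 0.16) that did not pass, although it passed at -1.25 on library sizes. *KIF22*, a chromokinesin that pushes chromosome arms towards the equator, was the spindle kinesin that fell, from 19.9 ± 7.89 (SD, n = 4) to 7.57 ± 2.53 CPM per kb (SD, n = 10), by 1.36 on the log2 scale (SE 0.24, FDR 4.3e-05). GV and MIX libraries of *KIF22* overlapped at the edges, since GV ran from 9.69 to 28.8 and MIX from 4.41 to 12.6.

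The kinesin-13 motors of the spindle class, which take microtubules apart at their ends, had the smallest rises of that class. *KIF2C* stood at 19.8, 20.7, 20.7 and 28.8 CPM per kb in GV, 31.3, 28.3, 36.5, 28.8 and 39.1 in MII, and 34.5, 31.5, 31.1, 34.6 and 43.3 in ‘damaged’ libraries. The highest GV library lay within the range of the matured ones, and *KIF2C* rose by 0.59 (SE 0.13, FDR 4.9e-04) with TMM but stood at -0.30 on library sizes, not past the test. *KIF2A* rose by 0.82 (SE 0.11, FDR 1.9e-06) with TMM, from 16.8 ± 1.12 (SD, n = 4) to 29.8 ± 3.35 CPM per kb (SD, n = 10), and stood at -0.07 on library sizes, not past the test. *KIF2B*, the remaining *KIF2* gene, had at most 2.03 counts per library and was not tested.

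**Figure D2:**
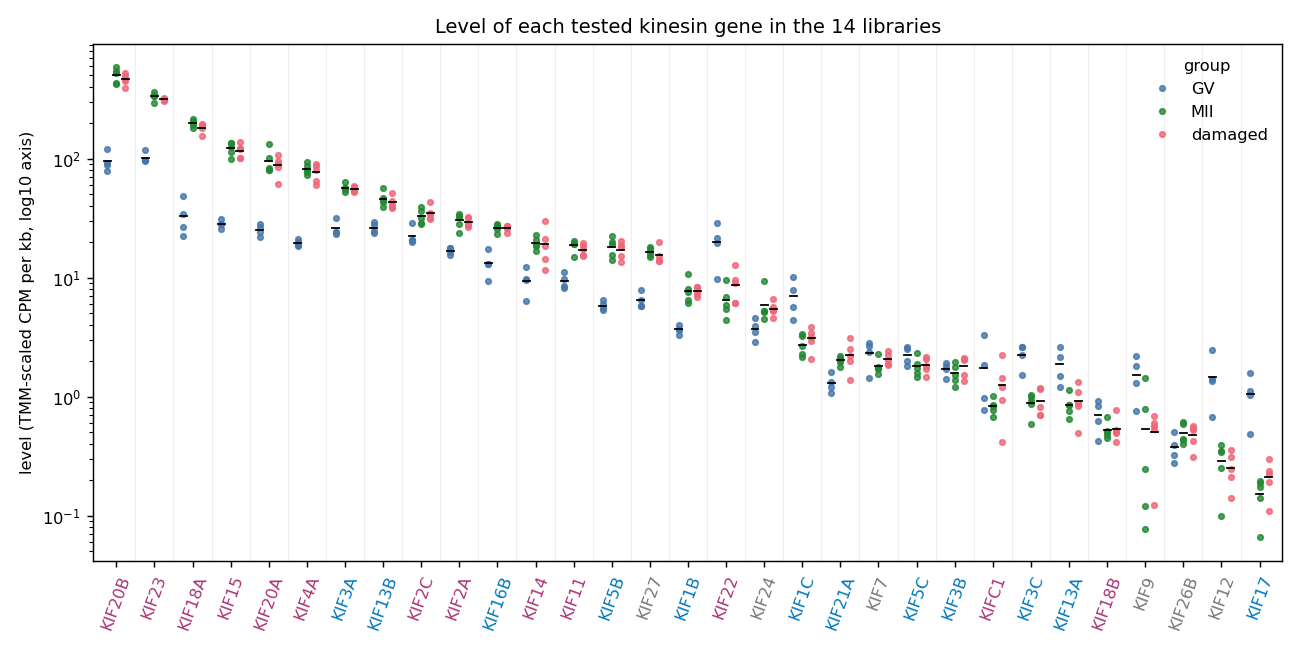
Level of each tested kinesin gene in TMM-scaled CPM per kb (y axis, log10 scale) in the 14 libraries, ordered by mean level in MIX. Points are libraries (blue GV, green MII, red ‘damaged’), black bars are group means, and gene names are coloured by class (purple spindle and division, blue transport, grey other). *KIF20B*, *KIF23*, *KIF18A*, *KIF15*, *KIF20A* and *KIF4A* stand highest in MIX with GV below, and *KIF17* and *KIF12* lowest with GV above.

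Transport kinesins moved apart within their families. *KIF5B*, the ubiquitous heavy chain of conventional kinesin, stood at 5.95, 5.51, 6.50 and 5.33 CPM per kb in GV, 22.5, 19.2, 13.9, 19.9 and 15.3 in MII, and 20.1, 18.6, 13.6, 18.0 and 15.2 in ‘damaged’ libraries. All matured libraries lay above all GV libraries, and its log2 fold change of 1.58 (SE 0.14, FDR 5.9e-09) was the largest of the transport kinesins. *KIF5C*, a heavy chain best known from neurons, read 2.22 ± 0.385 in GV (SD, n = 4) and 1.82 ± 0.290 in MIX (SD, n = 10) with a log2 difference of -0.29 (SE 0.15, FDR 0.097) that did not pass, and passed at -1.18 on library sizes. *KIF5A*, the other neuronal heavy chain, had no count, so that *KIF5B* was the main heavy chain in both stages.

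In the kinesin-2 family, whose *KIF3A*/*KIF3B* and *KIF3A*/*KIF3C* pairs drive transport in cilia and cytoplasm, *KIF3A* was by far the most abundant. It had 31.9, 24.3, 23.3 and 24.0 CPM per kb in GV, 56.0, 57.0, 51.9, 56.4 and 63.1 in MII, and 52.6, 55.0, 58.0, 59.2 and 53.8 in ‘damaged’ libraries. The groups were separate, with a log2 fold change of 1.13 (SE 0.11, FDR 1.1e-08) that became 0.24 on library sizes and no longer passed (FDR 0.030). *KIF3B* stood at 1.71 ± 0.224 in GV (SD, n = 4) and 1.69 ± 0.337 CPM per kb in MIX (SD, n = 10), a log2 difference of -0.03 (95% interval -0.38 to 0.32) that did not pass with TMM but did at -0.91 on library sizes. *KIF3C* fell by 1.33 (SE 0.19, FDR 3.4e-06), from 2.24 ± 0.513 (SD, n = 4) to 0.896 ± 0.201 CPM per kb (SD, n = 10). *KIF17*, a kinesin-2 motor that works as a homodimer, read 1.58, 1.10, 1.03 and 0.483 CPM per kb in GV. It was at 0.188, 0.172, 0.0656, 0.195 and 0.141 in MII and 0.237, 0.302, 0.224, 0.109 and 0.190 in ‘damaged’ libraries. Every GV library exceeded every matured one, and *KIF17* fell by 2.41 (SE 0.33, FDR 1.4e-06) on the log2 scale, on 2.95 to 13.9 counts per matured library.

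The kinesin-3 family, carriers of vesicles, endosomes and mitochondria, held both directions. *KIF1B*, a carrier of mitochondria and synaptic vesicle precursors, had 3.32, 3.69, 3.65 and 4.01 CPM per kb in GV, 10.6, 7.61, 6.50, 8.08 and 6.06 in MII, and 7.30, 8.26, 6.92, 8.27 and 7.73 in ‘damaged’ libraries. It rose by 1.06 (SE 0.14, FDR 8.2e-07) with no overlap, and its 0.17 on library sizes did not pass. *KIF1C*, a vesicle motor, went the other way, from 7.01 ± 2.57 (SD, n = 4) to 2.91 ± 0.596 CPM per kb (SD, n = 10) and fell by 1.22 (SE 0.20, FDR 1.2e-05). *KIF13A*, an endosome motor, read 1.21, 2.15, 1.49 and 2.62 CPM per kb in GV, 0.845, 0.756, 1.14, 0.844 and 0.648 in MII, and 0.885, 0.825, 0.494, 1.32 and 1.09 in ‘damaged’ libraries. The lowest GV library lay inside the range of ‘damaged’, and *KIF13A* fell by 1.07 (SE 0.23, FDR 2.8e-04). Its relative *KIF13B* rose by 0.75 (SE 0.12, FDR 1.1e-05) with TMM, from 26.3 ± 2.44 (SD, n = 4) to 44.5 ± 5.75 (SD, n = 10), but stood at -0.14 on library sizes, and with the summed estimated counts of its transcripts at 0.33 (FDR 0.022), neither past the test. *KIF16B*, an early endosome motor, rose by 1.02 (SE 0.13, FDR 6.35e-07), and its 0.13 on library sizes did not pass. *KIF21A*, a kinesin-4 motor that restrains microtubule growth at the cell edge, rose by 0.69 (SE 0.18, FDR 0.0020) with TMM and stood at -0.20 on library sizes, not past the test. Without GV replicate 4 its FDR was 0.012.

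Ratios within a library need no scaling between libraries, and they were taken for all 9 pairs of tested members with the same number in their symbol. The pairs were chosen after the values were seen, so the ratios are a description. *KIF1B* over *KIF1C* went from a mean log2 ratio of -0.86 ± 0.50 in GV (SD, n = 4) to 1.42 ± 0.41 in MIX (SD, n = 10), so that the higher of the pair changed. *KIF5B* over *KIF5C* went from 1.40 ± 0.30 to 3.28 ± 0.46, and *KIF3A* over *KIF3C* from 3.55 ± 0.57 to 6.01 ± 0.37, with the same numbers of libraries. *KIF18A* over *KIF18B* went from 5.55 ± 0.89 to 8.50 ± 0.26, and *KIF13B* over *KIF13A* from 3.88 ± 0.37 to 5.69 ± 0.36. For these 5 pairs no MIX library lay within the GV range. The smallest shifts were those of *KIF20B* over *KIF20A*, from 1.90 ± 0.30 to 2.41 ± 0.27, and of *KIF2A* over *KIF2C*, from -0.41 ± 0.21 to -0.18 ± 0.33, and both overlapped. *KIF3A* over *KIF3B* went from 3.92 ± 0.40 to 5.08 ± 0.29 and *KIF3B* over *KIF3C* from -0.37 ± 0.18 to 0.93 ± 0.51, both without overlap. How often ratios of other gene pairs separate GV from MIX was not counted. Of single genes tested, 24.3% lay above GV and 29.4% below without overlap, so separate ratios cannot be read as particular to kinesins.

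Among the 8 cilium, signalling and other kinesins, *KIF27*, a relative of the hedgehog pathway kinesin *KIF7*, rose by 1.30 (SE 0.13, FDR 2.2e-08), from 6.49 ± 1.00 (SD, n = 4) to 15.9 ± 2.02 CPM per kb (SD, n = 10). *KIF7* itself, with 2.32 ± 0.620 and 1.95 ± 0.287 CPM per kb, had a log2 difference of -0.22 (SE 0.17, FDR 0.25) that did not pass, and passed at -1.10 on library sizes. *KIF24*, which restrains cilium growth at the centriole, rose by 0.59 (SE 0.17, FDR 0.0044) with TMM and stood at -0.30 on library sizes, not past the test. Its FDR was 0.019 without GV replicate 1, 0.016 without GV replicate 4 and 0.01005 with all 5 GV libraries. *KIF12*, on chromosome 1 from 254711820 to 254720559 and known from epithelia of kidney and liver, had 0.669, 1.34, 1.39 and 2.46 CPM per kb in GV. Its MII values were 0.395, 0.352, 0.250, 0.0982 and 0.345 and its ‘damaged’ values 0.247, 0.211, 0.141, 0.356 and 0.310. All GV libraries lay above all matured ones, and *KIF12* fell by 2.38 (SE 0.35, FDR 4.6e-06) on 3.96 to 11.8 counts per matured library. *KIF9*, a motor of motile cilia and flagella, fell by 1.75 (SE 0.45, FDR 0.0017) with overlap, from a GV mean of 1.51 ± 0.618 CPM per kb (SD, n = 4). MII replicates 4 and 5 stood at 0.790 and 1.43, above the lowest GV library at 0.758. With the replicate number as a block, *KIF9* stood at -1.44 (SE 0.52, limma FDR 0.017) and *KIF24* at 0.51 (SE 0.17, limma FDR 0.013), and neither kept its call. *KIF26B*, which lacks motor activity, read 0.374 ± 0.0994 and 0.483 ± 0.0969 CPM per kb, a log2 difference of 0.38 (SE 0.20, FDR 0.094) that did not pass and stood at -0.52 on library sizes.

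Within each library, the spindle kinesins took most of the summed kinesin level, and more of it after maturation. Their share was 77.9 ± 1.55% in GV (SD, n = 4), 88.2 ± 0.984% in MII (SD, n = 5) and 88.0 ± 0.591% in ‘damaged’ libraries (SD, n = 5). Transport kinesins took 18.9 ± 1.19%, 10.2 ± 0.719% and 10.5 ± 0.546% of the level in the same order. *KIF20B* alone went from 19.2 ± 2.27% in GV to 30.4 ± 2.05% in MIX (SD, n = 10). *KIF20B*, *KIF23* and *KIF18A* together went from 46.5 ± 4.39% to 62.9 ± 2.32%, a larger shift than that of the whole spindle class. These are shares of a level per length and carry no test.

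**Figure D3:**
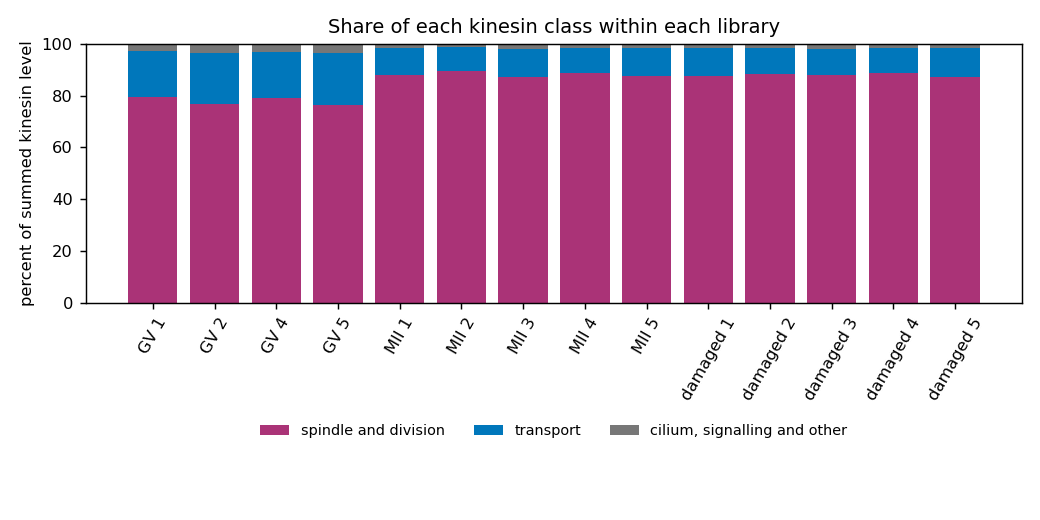
Share of the summed kinesin level (TMM-scaled CPM per kb) taken by each class in the 14 libraries. Bars are libraries stacked to 100 percent, and the spindle share lies between 76.5 and 79.4% in GV and between 87.1 and 89.6% in MII and ‘damaged’ libraries.

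MII and ‘damaged’ oocytes were each set against the same GV libraries, so these comparisons share their controls. In MII, 18 kinesins rose and 7 fell, against 28.2% and 34.2% of all genes tested, and in ‘damaged’ oocytes 17 rose and 6 fell, against 28% and 33.4%. In both, 25 kinesins had an unadjusted p under 0.05, against 73.6% and 72.7% of all genes. DEGs upwards were 4 kinesins in MII, against 4.5% of all genes, and 3 in ‘damaged’, against 4.08%, and DEGs downwards were 2 in each, against 17.1% and 16.4%. *KIF24* and *KIF9* passed in MII and not in ‘damaged’ oocytes, without a difference between these groups that passed. *KIF18A* rose by 2.65 (SE 0.17) in MII and 2.53 (SE 0.17) in ‘damaged’, *KIF20B* by 2.41 (SE 0.14) and 2.31 (SE 0.14), and *KIF15* by 2.10 (SE 0.13) and 2.04 (SE 0.13). *KIF4A* rose by 2.06 (SE 0.14) and 1.96 (SE 0.14), the latter just under the DEG limit. *KIF17* fell by 2.63 (SE 0.42) and 2.19 (SE 0.39), and *KIF12* by 2.36 (SE 0.44) and 2.40 (SE 0.45). All of these passed the FDR in limma in both.

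The comparison of MII with ‘damaged’ oocytes asked whether kinesins marked the oocytes that did not extrude a polar body, and no kinesin passed it. With limma, 0 of the 31 passed the FDR and 0 had an unadjusted p under 0.05, while over all 13230 genes 0 passed and 194, or 1.47%, were under 0.05. In edgeR and DESeq2 0 genes passed as well, with 273 and 251 genes under 0.05, none of them a kinesin. Without any difference, a share of about 0.05 of the genes would lie under that p, and each tool gave fewer. The tests may thus be too strict and miss small differences, and the reason was not tested. The interval of the difference lay within 1 on the log2 scale, that is within 2-fold, for 26 of the 31 kinesins. *KIF23* had the narrowest bounds among those described, a log2 difference of 0.08 (95% interval -0.13 to 0.30), and *KIF18A* was at 0.13 (-0.20 to 0.45), *KIF20B* at 0.10 (-0.17 to 0.38) and *KIF5B* at 0.08 (-0.23 to 0.39). The interval reached beyond 2-fold for *KIF22* at -0.44 (-1.05 to 0.18), *KIFC1* at -0.40 (-1.32 to 0.52), *KIF17* at -0.43 (-1.47 to 0.60), *KIF12* at 0.04 (-1.08 to 1.16) and *KIF9* at -0.30 (-1.66 to 1.06), which had few counts or a wide spread between libraries. *KIF22* had the smallest unadjusted limma p of them, 0.15.

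**Figure D4:**
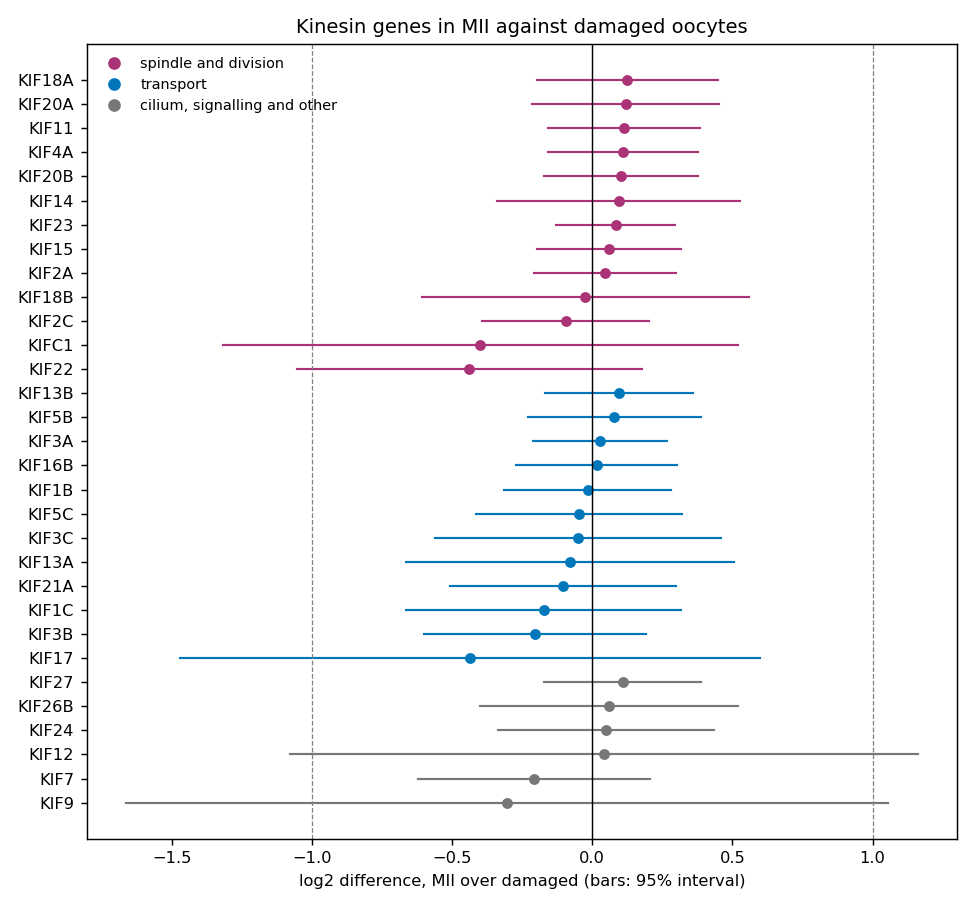
Log2 difference of each tested kinesin gene between MII and ‘damaged’ oocytes (x axis, points) with its 95% interval (bars), coloured by class. Dashed lines mark 2-fold, the interval includes 0 for every gene, and it crosses a dashed line for *KIF22*, *KIFC1*, *KIF17*, *KIF12* and *KIF9*.

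In several kinesins the share of the annotated transcripts differed between GV and MIX. Isoform usage is the share of a gene's TPM, a level per transcript length, that falls to each transcript, and an isoform was called when its FDR in the DEXSeq model was under 0.01 and its share moved by more than 10 percentage points. Of 35 kinesin genes with a count, 22 had more than 1 transcript with a count and 12 entered the test, which already asks for a shift over 10 points in the gene. In these, 21 of 36 isoforms in 10 genes were called, against 51.3% of all 8998 isoforms tested. Over all genes that entered, 74.7% had a called isoform. All 5 spindle kinesins tested had one, namely *KIF23*, *KIF20A*, *KIF15*, *KIF14* and *KIF2A*, and so had 5 of 7 transport kinesins, *KIF13A*, *KIF13B*, *KIF16B*, *KIF1B* and *KIF21A*.

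*KIF20A* turned to another transcript of similar length. ENSSSCT00000015652.4, of 3217 bases, held 55.2 ± 18.6% of the gene in GV (SD, n = 4) and 0.545 ± 1.67% in MIX (SD, n = 10), while ENSSSCT00000065298.2, of 3271 bases, went from 44.0 ± 18.0% to 90.9 ± 1.93% (FDR 2.5e-09 and 7.7e-18). In *KIF15* the transcript of 4104 bases, ENSSSCT00000052973.3, held 28.3 ± 9.09% in GV and had 0 counts in each MII library and at most 7.31 in a ‘damaged’ library, and that of 5156 bases, ENSSSCT00000043506.3, took 71.7 ± 9.09% in GV and 99.99 ± 0.0272% in MIX (FDR 1.1e-21). In *KIF23*, 4 transcripts were called. ENSSSCT00000047705.3 (3371 bases) fell from 66.0 ± 3.32% to 48.8 ± 2.86% and ENSSSCT00000096784.1 (3664 bases) from 23.8 ± 2.39% to 7.77 ± 1.49%. Conversely ENSSSCT00000051652.2 (3282 bases) went from 4.01 ± 2.26% to 25.6 ± 2.29% and ENSSSCT00000078191.1 (2929 bases) from 0.0432 ± 0.0864% to 17.0 ± 3.36%. These values rest on 6105 to 19978 counts of *KIF23* per library. With limma's diffSplice the fall of the main *KIF23* transcript was not called (FDR 0.48) and the other 3 were.

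*KIF13B* turned from a longer to a shorter transcript. Its transcript of 4615 bases, ENSSSCT00000103599.1, went from 38.1 ± 9.04% (SD, n = 4) to 2.06 ± 0.387% (SD, n = 10) and that of 2316 bases, ENSSSCT00000010618.5, from 58.9 ± 10.8% to 94.4 ± 0.957% (FDR 2.2e-68 for both). *KIF16B* shifted towards ENSSSCT00000072885.2 (4714 bases), from 26.3 ± 22.7% to 70.8 ± 7.13%, away from ENSSSCT00000060911.3 (4889 bases), from 56.2 ± 17.2% to 25.04 ± 7.55%. The GV libraries of *KIF16B* were uneven, since 1 of them already had 59.99% in the transcript of 4714 bases. *KIF2A* moved the other way in length, with ENSSSCT00000050979.2 (7836 bases) going from 22.8 ± 2.82% to 37.1 ± 5.66% and ENSSSCT00000032036.4 (5715 bases) from 75.6 ± 0.894% to 62.1 ± 5.32% (FDR 3.4e-06 for both). *KIF14*'s main transcript of 6523 bases, ENSSSCT00000102098.1, fell from 95.7 ± 1.93% to 80.7 ± 8.04%.

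In *KIF13A* the leading transcript differed between GV and MIX while the gene fell. ENSSSCT00000052972.3 (6682 bases) held 89.0 ± 3.77% in GV and 10.6 ± 13.4% in MIX, and ENSSSCT00000029912.4 (6752 bases) 4.21 ± 5.45% and 70.7 ± 24.8% (FDR 1.5e-05 and 1.3e-04), on 55.0 to 405 counts per library. *KIF1B* gained ENSSSCT00000053353.3 (7379 bases), which had no measurable share in GV and 11.4 ± 6.52% in MIX. In *KIF21A*, ENSSSCT00000093416.1 went from 0 to 28.3 ± 19.4%, and ENSSSCT00000071566.2 fell from 56.1 ± 39.4% to 7.69 ± 13.97% (FDR 0.0056), a call lost when any of 9 libraries was left out (FDR 0.0103 to 0.0317). *KIF3B* and *KIF5C* had no called isoform, with shifts of up to 12.1 and 51.0 percentage points beside a wide spread between libraries, although diffSplice called 2 isoforms of *KIF5C*. Kallisto divides reads among overlapping transcripts, so these shares are estimates and short reads do not fix every splice form.

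**Figure D5:**
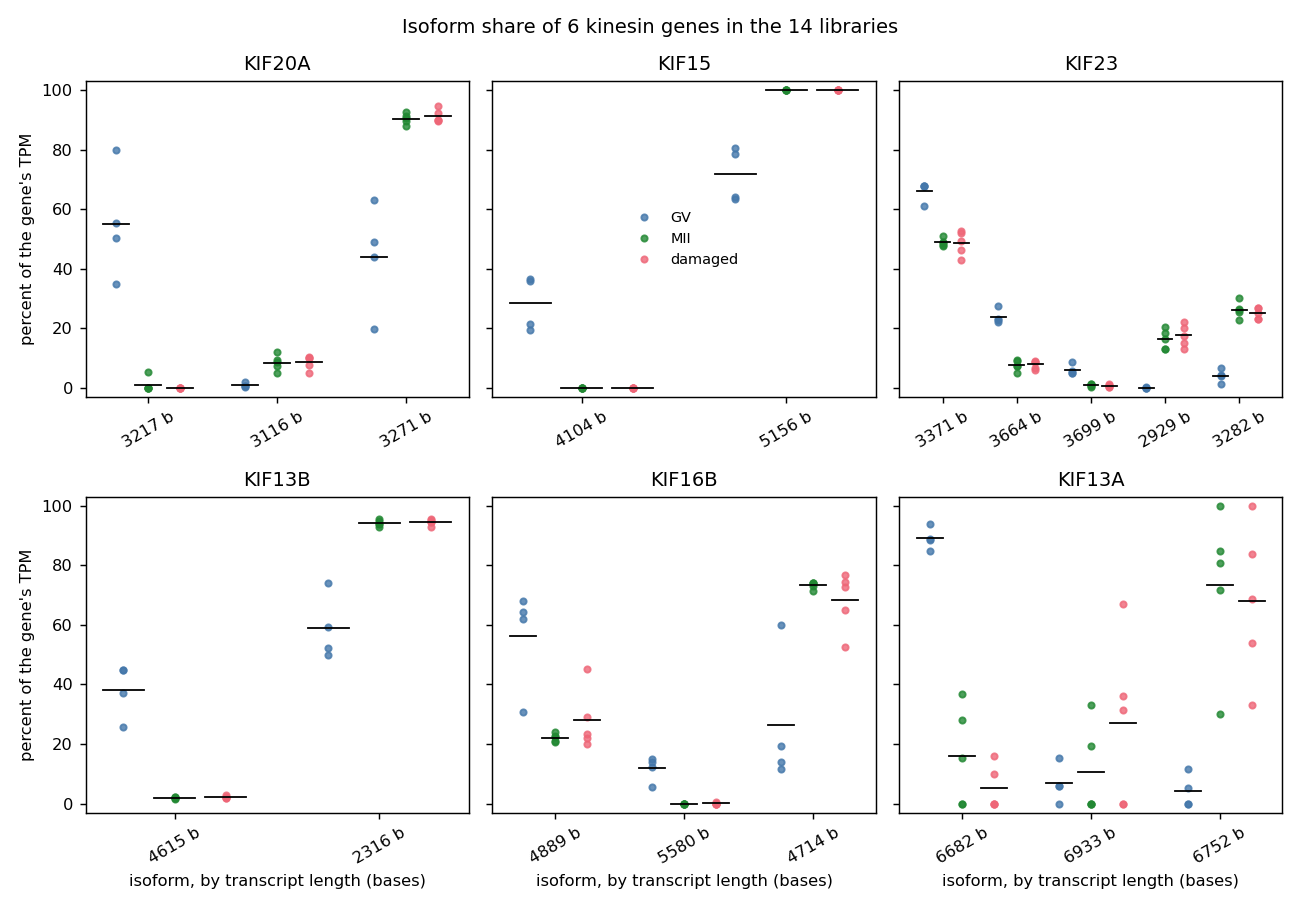
Share of the gene's TPM (y axis, percent) held by each tested transcript, named by its length in bases, of 6 kinesin genes. Points are libraries, black bars are group means, and MII and ‘damaged’ points lie together in *KIF20A*, *KIF15*, *KIF23* and *KIF13B*, apart from GV, while *KIF13A* is spread widely.

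Genes that act with the spindle kinesins were compared from a list of 15. Of these 11 rose and *NUMA1*, *CLASP1* and *MAPRE2* fell, against 30% and 37% of all genes tested, with a median log2 fold change of 1.83 against -0.16 for all genes tested, and 0.93 against -1.05 on library sizes. The largest rises were those of *TPX2*, a spindle assembly factor, by 2.26 (SE 0.11), from 108 ± 20.3 to 511 ± 39.2 CPM per kb, of *HMMR*, a spindle pole protein, by 2.22 (SE 0.12), and of *KNSTRN*, a kinetochore adaptor, by 2.17 (SE 0.17). All 3 also rose on library sizes, by 1.37, 1.32 and 1.28. The list holds *CENPE*, a kinetochore kinesin whose symbol the KIF rule does not take, which rose by 2.16 (SE 0.12), and none of the list fell past the DEG limit. *RACGAP1*, the partner of *KIF23* in centralspindlin, rose by 0.68 (SE 0.18) and *NUSAP1* by 0.59 (SE 0.13), and both stood below 0 on library sizes, at -0.21 and -0.31.

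For the transport kinesins, light chains and cargo adaptors stood less far from the background. Of 16 listed, 10 were tested, and 4 rose and 2 fell, against 30% and 37% of all genes tested. None passed the DEG limit, which 4.27% of all genes passed upwards and 16.8% downwards, and the list had a median log2 fold change of 0.22 with TMM and -0.67 on library sizes. Among those that rose were *KIFAP3*, the cargo subunit of the *KIF3* motors, by 1.43 (SE 0.14), *RHOT1*, an anchor on mitochondria, by 1.33 (SE 0.14), and the light chain *KLC1* by 0.71 (SE 0.12), which stood at -0.18 on library sizes. *TRAK2*, an adaptor on mitochondria, fell by 1.48 (SE 0.22) and *PLEKHM2*, an adaptor on lysosomes, by 1.40 (SE 0.28). *TPX2*, *HMMR* and *KNSTRN* were named as the largest rises past the DEG limit in their list. The other partners and adaptors named were also chosen after their values were seen. Dynein and dynactin, the motor complex of the opposite direction, had 24 of 25 genes tested, of which 8 rose and 12 fell, against 30% and 37% of all genes tested, with a median of -0.56 with TMM and -1.45 on library sizes. *DYNLL1*, a light chain shared by dynein and other proteins, fell by 4.20 (SE 0.12), from 1683 ± 244 to 91.6 ± 13.0 CPM per kb, *ACTR1B* by 2.30 (SE 0.46) and *DCTN1*, the large dynactin subunit, by 2.15 (SE 0.33). *DYNLT1*, another light chain, rose by 2.31 (SE 0.16), from 371 ± 131 to 1771 ± 233 CPM per kb.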

How the data were processed

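Libraries of 15 pooled oocytes were made with SMART-Seq HT from poly(A) RNA and sequenced as single 75-base reads. The deposited transcript files hold estimated counts and TPM, which the authors made with Kallisto 0.43 on the Ensembl Sscrofa11.1 cDNA set after AfterQC trimming. The authors' deposited gene table holds estimated counts per gene, length-scaled TPM from tximport. Its 7 columns whose totals belonged to another label's file were not used, and gene counts of all libraries were rebuilt from the transcript files, each gene's transcripts having been found from the other 8 columns (largest difference 7.8e-05% for counts of at least 10). Genes were fitted with limma 3.58.1 (voom, TMM factors from edgeR 4.0.16, filterByExpr) in 1 model of GV, MII and ‘damaged’, with MIX as the mean of both matured groups and Benjamini-Hochberg FDR over 13230 genes. Isoform usage was tested with the DEXSeq model in DESeq2 1.42.0, for genes over 1 TPM and isoforms over 0.05 of the gene. On simulated data with 200 of 12909 genes changed 8-fold, 198 were recovered in MIX against GV with 0 false calls. Of 200 isoform changes 200 were recovered, with 6 calls among 8459 isoforms of unchanged genes. Recovery of gene changes under 8-fold was not tested. Recovery with as many genes changed as in the real libraries, 30% higher and 37% lower, was not tested. Genes named with each library's value were 13 kinesins of the spindle and transport set for their roles, and the DEGs. The members and lists were chosen with earlier results of these data known. The 5 collections each gave all 3 groups, but no source ties the replicate number to a collection, and the main fit did not pair the numbers. Same-number libraries of different groups correlated at -0.11 to 0.36, with 5 of 13 over 0.1, against a median of -0.016 for other numbers. In 8 of 14 libraries the best correlation was with their own number. A fit with the replicate number as a block was therefore an alternative. Gene positions are RefSeq's, and symbols were looked up by Ensembl gene id. A symbol was found for 15527 of the 22516 rows, and a row without one could not enter the kinesin set. Alternatives were other tools, scaling, filters, libraries and counts. The reads do not mark strand, so overlapping antisense genes cannot be told apart.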

Additional observations from a re-analysis of the deposited data

Results flagged for a closer look

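In 8 of the 93 groups of 4 or 5 libraries, 1 library stood further from the others than Dixon's limit, and chance flags about 1 in 20 groups. In GV, replicate 5 was high for *KIF2C*, at 28.8 CPM per kb with 20.7 next, and replicate 1 was high for *KIF23* at 117 with 97.6 next and for *KIF3A* at 31.9 with 24.3 next. In ‘damaged’ oocytes, replicate 5 was high for *KIF2C* at 43.3 with 34.6 next, replicate 3 for *KIF27* at 19.8 with 15.1 next, and replicate 2 was low for *KIF9* at 0.122 with 0.536 next. In MII, replicate 5 was low for *KIF11* at 14.999 with 19.1 next and replicate 3 high for *KIF24* at 9.31 with 5.23 next.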

How the results depend on the processing

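On library sizes without TMM factors, MIX against GV gave 8 kinesins higher and 12 lower, 0 DEGs upwards and 6 downwards, and medians of 0.13 for spindle and -0.56 for transport kinesins. Of all 13230 genes tested, 11.9% were then higher and 60% lower, with 46 DEGs upwards and 3787 downwards. MII against GV then gave 7 higher and 12 lower, and ‘damaged’ against GV 7 higher and 11 lower. Of all 13230 genes, 9060 and 8876 passed in these comparisons, counted without direction. The log2 fold change turned to -0.14 for *KIF13B*, -0.20 for *KIF21A*, -0.30 for *KIF24*, -0.069 for *KIF2A* and -0.30 for *KIF2C*. With genes of at least 10 CPM alone, fewer genes entered, and the spindle median was 1.35. The DEGs were then 2 upwards (*KIF15* and *KIF4A* stood at 1.74 and 1.69) and 0 downwards. Of the 7465 genes tested under that filter, 181 were DEGs upwards and 1177 downwards. *KIF2C* (0.27, limma FDR 0.072), *KIF21A* (0.37, limma FDR 0.070) and *KIF24* (0.27, limma FDR 0.16) lost their call under that filter. *KIF5C* (-0.61, limma FDR 0.0012) and *KIF7* (-0.55, limma FDR 0.0087) were then called lower. With no filter beyond a count above 0 the transport median was -0.12, since the low-count members then entered, and with Kallisto's estimated counts summed per gene it was 0.11. With the gene table's own column labels 0 kinesins were higher or lower in MIX, MII or ‘damaged’ against GV, 0 were DEGs in either direction, and the medians were 0.40 and 0.10. Leaving out 1 library at a time gave 16 to 18 higher, 7 lower, 3 to 4 DEGs upwards and 2 to 3 downwards in MIX, 15 to 18 and 6 to 7 in MII, and 16 to 18 and 6 to 7 in ‘damaged’. The spindle median then ran from 0.96 without ‘damaged’ replicate 5 to 1.16 without GV replicate 5, the transport median from 0.31 to 0.40, isoforms called from 18 to 22 and their genes from 9 to 11. With the replicate number as a block, 17 kinesins were higher and 6 lower in each GV comparison, 0 passed between MII and ‘damaged’, and 21 isoforms were called. *KIF24* (limma FDR 0.013) and *KIF9* (limma FDR 0.017) lost their call under the block in MIX against GV, and 8 of 14 libraries correlated best with a library of their own number. edgeR, DESeq2 and all 5 GV libraries left each count of kinesins within 1.5 times, and no other single gene reversed.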
